A study of Mus musculus with 2 samples.

Results

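The Sox transcription factors described here are 10 genes, Sox2, Sox4, Sox11, Sox12, Sox5, Sox6, Sox8, Sox9, Sox10 and Sox18, taken by gene symbol out of 22072 genes in the tables. They were measured by RNA-seq in lower molar mesenchyme of mouse embryos at embryonic day 14.5, on a mixed strain background, in 1 library of Osr2+/- tissue (the control, which itself lacks 1 functional Osr2 allele) and 1 library of Osr2-/- tissue (the mutant). The tissue was cut from frozen head sections by laser capture microdissection, and material of 3 pairs of control and mutant was pooled for RNA extraction, so each library is an average over embryos and has no replicate. Differences below therefore compare 2 libraries, no p-value is given, and a counting interval covers counting error only. The series title calls the control wild type, and its sample label, Osr2+/-, is followed here. The allele's deleted part and the sex of the embryos are not given in the sources used here. The question set by the design is which transcripts differ in molar mesenchyme when Osr2, a zinc-finger transcription factor of that tissue, is lost.

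Sox proteins bind DNA through an HMG box related to that of SRY, and they are sorted into subgroups by the likeness of that box. SoxB genes such as Sox2 are known for maintaining progenitor states, and in teeth Sox2 marks epithelial progenitors. SoxC genes are expressed in embryonic mesenchyme and in young neurons, SoxD and SoxE genes act together in cartilage formation, SoxE genes also act in neural crest and glia, and SoxF genes act in endothelium.

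Mapped reads numbered about 5.38 M for the control, the shallower library, and about 34.3 M for the mutant, with medians of 61 and 369 reads per gene tested (read numbers throughout are approximate, from coverage). As a check of the labels, Osr2 stood at 38.7 RPKM in control tissue and at 9.16 RPKM in mutant tissue (reads scaled by transcript length and library size), a 4.23-fold difference (3.69 to 4.84). Markers of the labelled tissue were present in both libraries, with all 14 dental mesenchyme genes above 0 and Msx1, a homeobox gene of dental mesenchyme, at 40.0 and 36.8 RPKM. The pools also differed in sex-linked genes. Y-linked Ddx3y had 3.28 RPKM in control tissue and was 0 in mutant tissue, and Xist, expressed from an inactive X, had 5.21 and 29.95 RPKM. The part of sex in the Sox values was not tested. By the deposited file names the 2 libraries ran on different lanes of 1 run, and an effect of lane cannot be told apart from one of genotype.

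The start regions of the 3 SoxC genes are shown because these genes make up most of the Sox RNA in this tissue, and those of 3 Sox6 transcripts because the libraries differed in how reads were assigned to them. RefSeq sequences (GRCm38.p6) were found for 7 of the 10 genes. Each line below gives bases before the transcript start, 5′ to 3′, ending at the start or, where GENCODE places an exon of the same gene in the window, before that exon. In the SoxC lines capitals mark CCAAT on either strand (written ATTGG on the other strand).
Sox4 (chr13:28953714-28953949, minus strand): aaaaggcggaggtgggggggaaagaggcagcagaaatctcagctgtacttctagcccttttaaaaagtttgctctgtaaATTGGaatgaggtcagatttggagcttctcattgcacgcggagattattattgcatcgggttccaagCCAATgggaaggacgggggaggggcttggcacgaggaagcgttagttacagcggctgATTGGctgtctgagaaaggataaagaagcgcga
Sox11 (chr12:27342719-27342968, minus strand): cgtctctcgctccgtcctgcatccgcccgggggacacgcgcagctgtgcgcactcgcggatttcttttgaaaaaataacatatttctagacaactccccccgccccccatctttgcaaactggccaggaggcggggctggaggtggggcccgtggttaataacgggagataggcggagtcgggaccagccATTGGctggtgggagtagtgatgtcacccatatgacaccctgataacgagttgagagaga
Sox12 (chr2:152398064-152398296, minus strand): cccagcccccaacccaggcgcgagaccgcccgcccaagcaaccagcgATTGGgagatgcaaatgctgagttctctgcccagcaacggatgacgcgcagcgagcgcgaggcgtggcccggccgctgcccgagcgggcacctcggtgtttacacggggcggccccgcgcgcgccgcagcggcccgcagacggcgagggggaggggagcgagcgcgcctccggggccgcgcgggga

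CCAAT, read on both strands, was found at 4 positions in the 250 bases before the Sox4 start, of which 3 lie in the bases shown, and at 1 position each for Sox11 and Sox12. Of 32851 windows of 250 bases before RefSeq starts, 33.8% held it at least once and 2.79% held 3 or more. The Sox12 window was 74.4% G and C, above 95.4% of all windows, against 58.0% for Sox11 and 50.8% for Sox4. No SOX core was found in the 3 SoxC windows. The core searched was AACAAAG or AACAATG or ATCAAAG or ATCAATG or TACAAAG or TACAATG or TTCAAAG or TTCAATG, on either strand, and those ending in CAAAG are also cores of the related Tcf and Lef factors.

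The Sox6 transcripts begin at separate starts on the minus strand of chromosome 7, and capitals mark the SOX core on either strand (its reverse complement begins with CTTTG or CATTG) in their lines, which are named by the length of the transcript row.
Sox6, 8079 bases (chr7:116038797-116038994, minus strand): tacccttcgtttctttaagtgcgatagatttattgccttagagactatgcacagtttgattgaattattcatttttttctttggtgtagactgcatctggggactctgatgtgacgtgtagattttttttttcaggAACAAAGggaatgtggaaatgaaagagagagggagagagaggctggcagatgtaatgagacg
Sox6, 8193 bases (chr7:116031048-116031297, minus strand): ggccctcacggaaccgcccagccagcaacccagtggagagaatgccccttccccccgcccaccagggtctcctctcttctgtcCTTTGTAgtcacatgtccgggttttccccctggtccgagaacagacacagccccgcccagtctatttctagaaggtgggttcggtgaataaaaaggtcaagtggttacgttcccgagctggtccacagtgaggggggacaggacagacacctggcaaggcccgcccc
Sox6, 8227 bases (chr7:115995087-115995336, minus strand): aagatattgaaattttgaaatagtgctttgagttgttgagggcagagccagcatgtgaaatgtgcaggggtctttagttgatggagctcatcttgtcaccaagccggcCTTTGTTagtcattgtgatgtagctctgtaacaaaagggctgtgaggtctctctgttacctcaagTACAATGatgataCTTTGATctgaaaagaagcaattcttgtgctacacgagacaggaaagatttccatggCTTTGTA

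The window of the 8227-base transcript held the SOX core at 4 positions, the nearest of them 7 to 1 bases before the start, and the windows of the other two transcripts held it at 1 position each. Among all windows, 21.8% held it at least once and 0.396% held 3 or more. The window of the 8227-base transcript was 41.6% G and C, that of the 8193-base transcript 60.8%, against a median of 52.4% over all windows. The core is rich in A and T, and the shares over all windows are not matched for G and C. Further Sox6 starts, not shown here, held the core at 2 positions or 1. An exon of the antisense transcript Gm45025 also lies in the window of the 8227-base transcript, per GENCODE. A match describes the letters of a window and is no measurement of binding.

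All 10 Sox genes were above 0 in both libraries, and the levels of each in the 2 libraries lay within 2-fold. In tissue pieces such as these, fewer cells of a type and less RNA per cell cannot be told apart. On the scale of log2((mutant RPKM + 1)/(control RPKM + 1)), the ratios ran from -0.35 for Sox18 to 0.54 for Sox6, with a median over all 10 genes of 0.18. Over the 9324 genes tested, those with a mean of at least 1 RPKM, the median log2 ratio was -0.04, the mutant value was 2-fold or more above the control in 0.622% and below it by that much in 0.761%. RPKM was higher in the mutant for 8 of the 10 Sox genes and lower for Sox18 and Sox10, while 42.2% of the genes tested were higher. The 95% counting interval of the fold lay above 1 for 4 Sox genes, Sox4, Sox11, Sox6 and Sox9, where 7.54% of the genes tested had such an interval. It lay below 1 for Sox18, where 15.7% of the genes tested had one, and held 1 for the other 5. Of the 10 genes, 7 passed the filter of a mean of 1 RPKM, and Sox5, Sox8 and Sox10 did not.

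**Figure D1:**
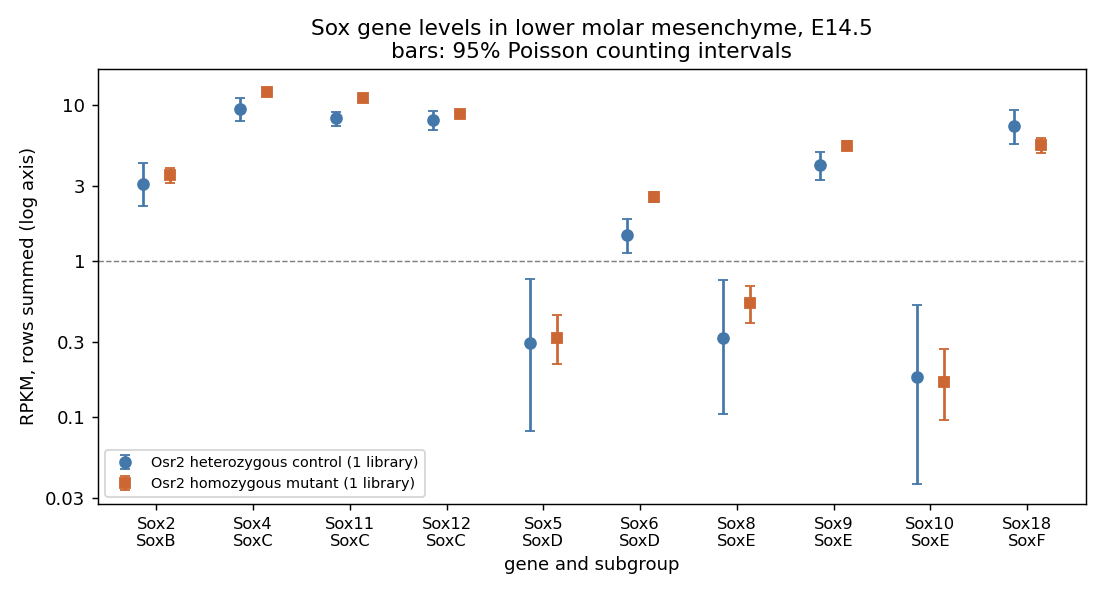
Level of each of the 10 Sox genes (horizontal axis, with subgroup) in RPKM on a log axis, circles for the control library and squares for the mutant library, bars for 95% Poisson counting intervals. Sox4, Sox11 and Sox12 sit highest in both libraries, and Sox5, Sox8 and Sox10 lie under the dashed line at 1 RPKM.

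The order of levels, compared per length, ran the same way in both libraries. In the control it began with Sox4 at 9.38 RPKM (95% counting interval 7.93 to 11.01), Sox11 at 8.19 RPKM, Sox12 at 7.95 RPKM and Sox18 at 7.29 RPKM, whose intervals each overlapped the next. Sox9 and Sox2 followed at 4.09 and 3.11 RPKM with overlapping intervals, Sox6 was apart from both at 1.46 RPKM, and Sox8, Sox5 and Sox10 closed it at 0.321, 0.298 and 0.178 RPKM. In the mutant Sox4 and Sox11 stood at 12.1 and 11.1 RPKM with intervals that just overlapped (11.4 to 12.8 and 10.7 to 11.4), and Sox12 lay below both at 8.70 RPKM (8.24 to 9.19). Sox9 lay below Sox18 with an interval apart from it in the control, while in the mutant the 2 genes were level, at 5.49 and 5.50 RPKM. Sox4 in the mutant exceeded 85.8% of the genes tested, and Sox6 exceeded 35.3%.

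The SoxC genes were the most abundant subgroup, and Sox4 and Sox11 were higher in the mutant library. Sox11 was at 8.19 RPKM in the control (7.38 to 9.07) and 11.1 RPKM in the mutant, on about 372 and 3204 reads, so the intervals of the 2 libraries did not overlap. Its fold was 1.35 (1.21 to 1.51). Sox4 was at 9.38 and 12.1 RPKM on 149 and 1225 reads, a fold of 1.29 (1.09 to 1.54). Sox12, the third SoxC gene, was at 7.95 RPKM (6.86 to 9.17) and 8.70 RPKM, a fold of 1.09 (0.94 to 1.28), so its libraries could not be separated by counting. Summed, the 3 genes were at 25.5 RPKM in control tissue and 31.8 RPKM in mutant tissue, 55.3% and 60.5% of the RPKM of all 20 Sox genes listed. Tead2, a transcription factor gene reported as a SoxC target, was at 9.79 and 11.5 RPKM (1.17-fold, 0.97 to 1.45). The neuronal genes Tubb3 and Dcx, also reported downstream of SoxC and on the list of neuron markers, stood at 0 and 0.29 RPKM in the control and 0.06 and 0.74 RPKM in the mutant. The fold of Dcx was 2.55 (1.49 to 4.75) on 14 and 228 reads, and the interval of Tubb3 held 1.

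**Figure D2:**
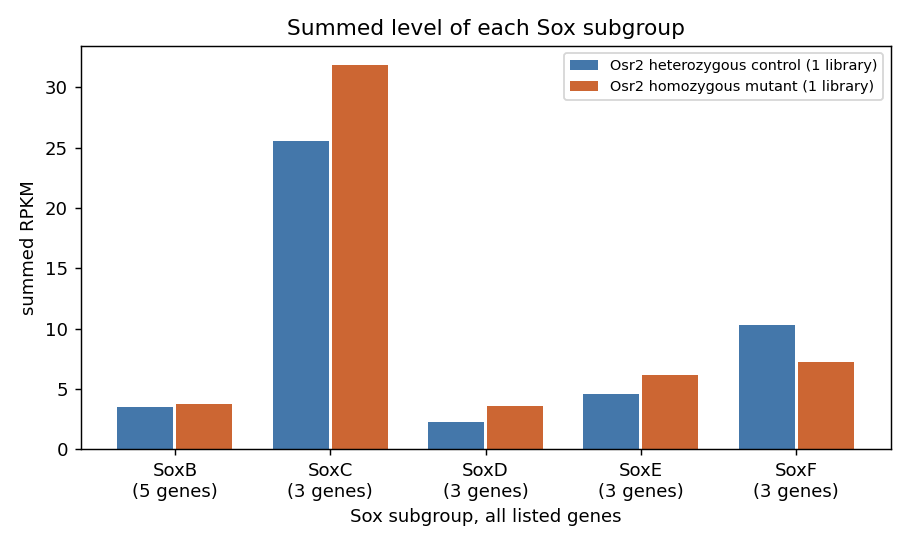
Summed RPKM (vertical axis, from 0) of all listed genes of each Sox subgroup, control bars in blue and mutant bars in orange, 1 library each. SoxC is the tallest pair, at 25.5 and 31.8 RPKM, and SoxF is the subgroup whose mutant bar is visibly the shorter one.

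Sox2, Sox4, Sox11 and Sox12 share a feature of gene structure: the locus of each spans exactly the length of its transcript row, so each is a single exon. Of all transcript rows in the tables, 11.7% have this property. The other 6 genes contain introns, from Sox18, with 1804 bases of locus for 1619 of transcript, to Sox6, with a locus of up to 567401 bases. Reads of unspliced RNA or of genomic DNA cannot be told from mature RNA at a single-exon gene. In mm9, Sox4 lies on chromosome 13 from 29042599 to 29045551, Sox11 on chromosome 12 from 28019133 to 28027583 and Sox12 on chromosome 2 from 152219348 to 152223782. Sox18 lies on the same chromosome 2, from 181404542 to 181406345.

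Sox2, the SoxB gene of epithelial and neural progenitors, was at 3.11 RPKM (2.23 to 4.22) in control tissue and 3.53 RPKM (3.14 to 3.95) in mutant tissue. The control interval held the whole mutant interval, and the fold was 1.13 (0.82 to 1.62) on 41 control reads. Sox2 is on chromosome 3 from 34548927 to 34551382, wholly inside the locus of the noncoding gene Sox2ot, which was at 0.108 and 0.0516 RPKM on about 2 and 5 reads. That overlap is one of loci, and the Sox2ot transcript has 2970 bases in a locus of 117613 bases. Locus positions show neither strand nor exons, so whether reads of Sox2ot fall within Sox2 was not tested. Of the other SoxB genes, Sox21 was at 0.361 and 0.204 RPKM (0.56-fold, 0.26 to 1.64), Sox1 and Sox3 were listed at 0 in both libraries, and Sox14 was 0 in control tissue and 0.0184 RPKM in mutant tissue.

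Markers of dental epithelium, where Sox2 is known to be expressed, were higher in the mutant library for 18 of the 19 listed genes. Of all genes tested, 42.2% were higher. The median log2 ratio of the 19 markers was 0.30, and their summed level was 48.5 RPKM in control tissue and 67.8 RPKM in mutant tissue (1.399-fold). A counting interval above 1 was found for 9 of the 19, of which 7 were among the 11 that passed the filter of 1 RPKM, where 7.54% of all genes tested had one. The keratin gene Krt17 was at 1.48 and 4.63 RPKM (3.12-fold, 1.76 to 6.15), Krt18 at 0.862 and 2.24 RPKM (2.60-fold, 1.25 to 7.86), the junction gene Perp at 3.61 and 6.75 RPKM (1.87-fold, 1.33 to 2.68) and the splicing factor gene Esrp1 at 1.94 and 3.13 RPKM (1.61-fold, 1.17 to 2.305). Lamb3, Shh and Cldn3 were listed at 0 in the control, the shallower library, and so could not come out lower in the mutant. The part of epithelial RNA in the level of Sox2, and of the other Sox genes higher in the mutant, was not tested.

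Among the SoxD genes, which encode coiled-coil partners of Sox9 without an activation domain of their own, Sox6 had the largest log2 ratio of the 10 genes and Sox5 was near the limit of detection. Sox6 was at 1.46 RPKM (1.12 to 1.86) in control tissue and 2.58 RPKM (2.39 to 2.77) in mutant tissue, a fold of 1.77 (1.37 to 2.32), and the intervals of the 2 libraries did not overlap. Sox5 was at 0.298 RPKM (0.0812 to 0.763) and 0.319 RPKM (0.219 to 0.451), on 4 and 32 reads, and its fold interval of 0.44 to 4.88 sets no direction. Sox13, the remaining SoxD gene, was at 0.507 and 0.692 RPKM (1.36-fold, 0.68 to 2.85). With only its highest row, the log2 ratio of Sox6 was 0.32 against 0.54 for the rows summed, and Sox11, at 0.39, was then the highest member.

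The 3 Sox6 rows, on chromosome 7 of mm9 from 122614858 to at most 123182258, with start regions printed above, had unequal parts in that difference. The row of 8193 bases was at 0.878 and 1.34 RPKM (1.53-fold, 1.09 to 2.17), and the row of 8079 bases at 0.581 and 0.867 RPKM (1.49-fold, 0.995 to 2.37). The row of 8227 bases received nearly 0 in the control, 0 of about 64 Sox6 reads, with an exact 95% upper limit of 5.601% for its share. In the mutant it received 0.365 RPKM, 103 of 721 reads or 14.3% (exact 95% interval 11.8% to 17.1%). The transcripts share most of their bases: only 71 of the 8079, 188 of the 8193 and 219 of the 8227 exonic bases lie in no other of the 3 rows, as annotated by GENCODE on GRCm38. The row values are the authors' estimates of how shared reads divide, and the intervals do not cover the error of that division.

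**Figure D3:**
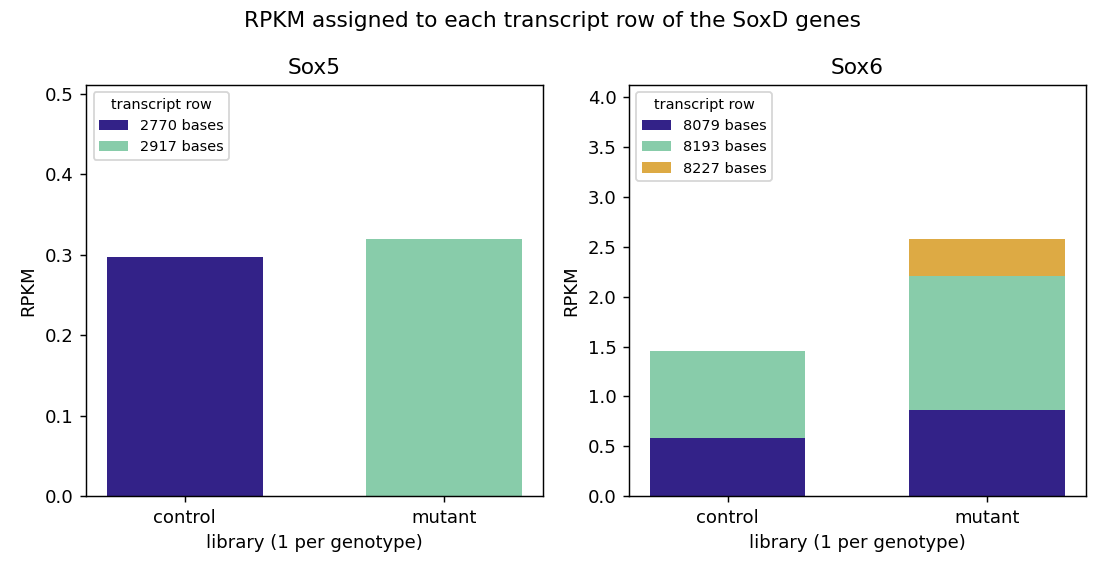
RPKM (vertical axes, from 0, with separate scales) of each transcript row of Sox5 and Sox6, stacked, for the control and the mutant library. For Sox6 the row of 8227 bases appears in the mutant bar, at 0.365 RPKM, and for Sox5 the entire bar belongs to a different row in each library.

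The 2 Sox5 rows, on chromosome 6 from 143781349 to 144158078, showed a complete exchange on few reads. In the control all 4 reads were assigned to the row of 2770 bases, and in the mutant all 32 were assigned to the row of 2917 bases, which is 147 bases longer. For the longer row the exact 95% interval of the share was 0% to 60.2% in the control and 89.1% to 100% in the mutant. The error of dividing shared reads is again not covered, and 4 reads leave the row use of the control poorly known.

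Of the SoxE genes, Sox9, the regulator of cartilage and of neural crest derivatives, was the abundant one, and Sox8 and Sox10 were below 1 RPKM. Sox9 was at 4.09 RPKM (3.30 to 5.03) in control tissue and 5.49 RPKM (5.11 to 5.88) in mutant tissue, on 91 and 780 reads. The mutant interval lay just above that of the control, and the fold was 1.34 (1.08 to 1.69). Sox8 was at 0.321 RPKM (0.104 to 0.748) and 0.533 RPKM (0.401 to 0.694), a fold of 1.66 (0.70 to 5.52) on 5 control reads. Sox10, of glia and melanocyte precursors, was at 0.178 RPKM (0.0368 to 0.521) and 0.167 RPKM (0.0956 to 0.272), 3 and 16 reads, with a fold of 0.94 (0.24 to 4.48). For both low genes the control interval spanned the mutant interval. Sox9 lies on chromosome 11 from 112643524 to 112649071, Sox8 on chromosome 17 from 25702838 to 25707631, and Sox10 on chromosome 15, the chromosome of Osr2, from 78985343 to 78994920.

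**Figure D4:**
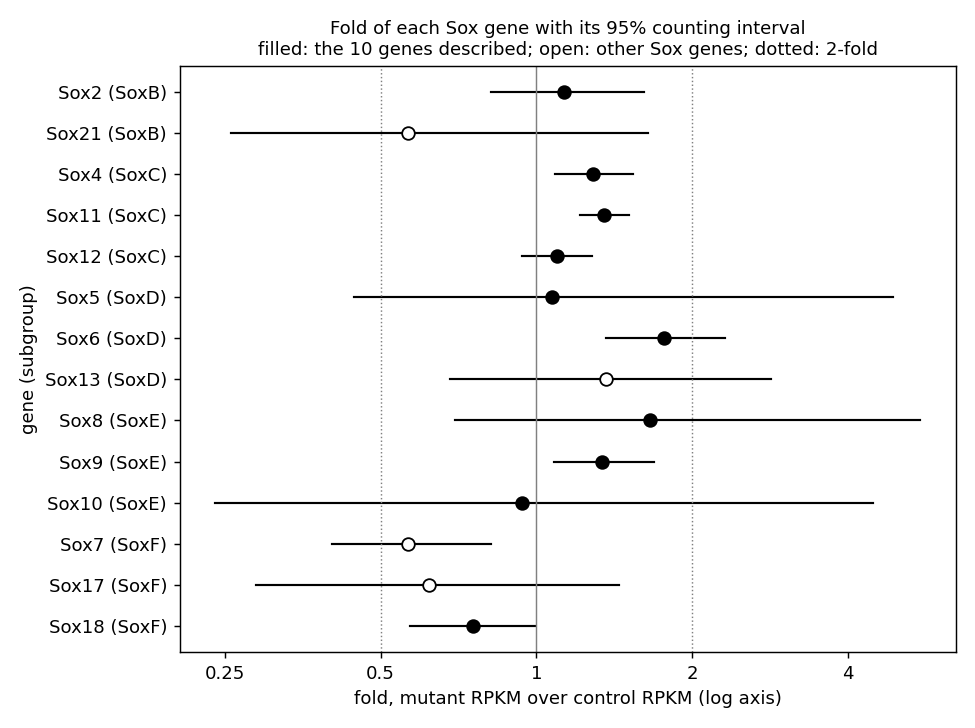
Fold of mutant over control RPKM (horizontal log axis) for the 10 Sox genes (filled) and 4 other Sox genes with reads in both libraries (open), with 95% counting intervals as lines. The intervals of Sox4, Sox11, Sox6 and Sox9 lie right of 1, those of Sox7 and Sox18 lie left of it, and the 3 SoxF genes are all at folds under 1.

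Genes of cartilage matrix that Sox9, Sox5 and Sox6 are known to activate were mostly near 0 in both libraries. Of 19 listed, 10 had a higher RPKM and 7 a lower RPKM in the mutant, where 42.2% of all genes tested were higher. A gene at 0 in the shallower control, as 9 of the 19 were, cannot have a lower RPKM in the mutant. The median log2 ratio of the 19 was 0.01. Col2a1, the main collagen of cartilage, was at 4.05 and 7.90 RPKM (1.95-fold, 1.599 to 2.39), and Col11a1 at 8.28 and 9.68 RPKM (1.17-fold, 1.04 to 1.32). Papss2, an enzyme gene of sulfation, was at 3.07 and 2.05 RPKM (1.497-fold lower, 1.12 to 2.003), and Hapln1, a link protein gene, at 2.66 and 2.06 RPKM (1.29-fold lower, 0.98 to 1.66). Acan, Comp, Matn1, Matn3, Matn4, Col11a2, Chad, Epyc and Ucma were listed at 0 in the control, and Col11a2, at 0.232 RPKM, was the highest of these 9 in the mutant. On 0 and about 45 reads, the counting interval of the Col11a2 fold lay above 1, from 1.84 upward. The summed level of the 10 cartilage markers was 7.60 RPKM in control tissue and 10.9 RPKM in mutant tissue. That sum was mostly Col2a1, while Hapln1, the next highest of them, had a lower RPKM in the mutant with an interval that held 1. Of the 10 markers, 6 had a higher RPKM and 3 a lower RPKM in the mutant, and 5 were at 0 in the shallower control. The part of cartilage RNA in the Sox9 and Sox6 values was not tested.

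Of 10 listed genes that act with or beside Sox9, 7 had a lower RPKM in the mutant and 2 a higher one, where 57.8% of all genes tested were lower, and the median log2 ratio was -0.18. Runx2, a transcription factor of bone that dental mesenchyme also expresses, had the largest ratio, at 13.4 and 24.7 RPKM (1.84-fold, 1.66 to 2.03). Arid5b, a Sox9 coactivator, was at 10.01 and 7.36 RPKM (1.36-fold lower, 1.18 to 1.56), Trps1 at 10.1 and 7.49 RPKM (1.34-fold lower, 1.22 to 1.47) and Wwp2, host gene of a cartilage microRNA, at 2.18 and 1.67 RPKM (1.30-fold lower, 0.94 to 1.77). Nkx3-2 was listed at 0 in both libraries.

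Markers of Schwann cells and neural crest glia, where Sox10 is a defining gene, were low, with 8 of 14 listed at 0 in the control, among them Fabp7 and S100b. In the mutant library, which is 6.38 times deeper, only Dhh was at 0. Fabp7 and S100b stood there at 0.44 and 0.35 RPKM, and the counting intervals of both held 1. Of the 14 genes, 11 had a higher RPKM in the mutant and 2 a lower one, where 42.2% of all genes tested were higher. An interval above 1 was found for 2, Ngfr and Erbb3. Erbb3 was at 0.121 and 0.453 RPKM (3.75-fold, 1.06 to 16.1) on 3 and 62 reads. Gfra3, a receptor subunit gene, was the 1 glia marker with an interval below 1, at 1.397 and 0.253 RPKM (5.52-fold lower, 2.62 to 11.98). Erbb3 and Gfra3 are outside the naming rule and were chosen after their values were seen. The summed level of the glia markers, 13.3 and 17.3 RPKM, was mostly Ngfr, a receptor gene that dental mesenchyme also expresses, at 9.86 and 13.3 RPKM (1.35-fold, 1.16 to 1.58). Ednrb was at 1.58 and 1.34 RPKM. Of 6 melanocyte markers, Tyrp1 and Mlana were at 0 in both libraries, and Tyr was at 1.12 and 1.29 RPKM. Of 10 neuron markers, 8 had a higher RPKM in the mutant and 1 a lower one, where 42.2% of all genes tested were higher. In the shallower control 5 of the 10 were at 0, and a gene at 0 there cannot come out lower. Only 2 of the 10 passed the filter of 1 RPKM. The summed level of the neuron markers was 4.36 and 7.74 RPKM. The neurofilament genes Nefl and Nefm were at 2.03 and 4.43 RPKM (2.19-fold, 1.405 to 3.51) and at 1.21 and 1.98 RPKM. Snap25, a synaptic gene also named after its values were seen, differed the other way, at 0.545 and 0.103 RPKM (5.30-fold lower, 1.52 to 18.997) on 6 and 7 reads. The part of these cells in the Sox values was not tested.

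Sox18, the SoxF gene of endothelium, was the 1 member with a counting interval below 1, at 7.29 RPKM (5.62 to 9.31) in control tissue and 5.50 RPKM (4.90 to 6.15) in mutant tissue. The intervals of the 2 libraries overlapped, and the fold, 1.33-fold lower (1.01 to 1.76) on 64 and 305 reads, left 1 outside by little. It no longer did so with 75 bases taken as 1 read, or with depth scaled by summed RPKM. The other two SoxF genes were also lower. Sox7 was at 2.46 RPKM (1.78 to 3.32) and 1.39 RPKM (1.18 to 1.63), 1.77-fold lower (1.22 to 2.48), with intervals that did not overlap. Sox17 was at 0.520 and 0.322 RPKM, 1.61-fold lower (0.69 to 3.48) on 9 control reads. Summed, SoxF was at 10.3 RPKM in control tissue and 7.21 RPKM in mutant tissue, 22.3% and 13.7% of all Sox RPKM.

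Of 18 endothelial markers, 13 had a lower RPKM in the mutant and 5 a higher one, where 57.8% of all genes tested were lower. The median log2 ratio was -0.09, and none was at 0. The summed level was 44.2 RPKM in control tissue and 36.6 RPKM in mutant tissue (1.21-fold lower). A counting interval below 1 was found for 2 of the 12 that passed the filter, a share near the 15.7% of all genes tested. No endothelial marker had an interval above 1. Emcn, a sialomucin gene of veins and capillaries, was at 5.53 and 2.54 RPKM (2.17-fold lower, 1.45 to 3.01), Ramp2 at 4.85 and 3.19 RPKM (1.52-fold lower, 0.92 to 2.43), the receptor gene Tie1 at 1.37 and 0.861 RPKM (1.59-fold lower, 1.03 to 2.43) and the receptor gene Tek at 2.25 and 1.75 RPKM (1.28-fold lower, 0.94 to 1.70). The abundant marker Cdh5, a junction cadherin named here after its values were seen, was at 10.5 and 9.62 RPKM. The part of endothelial RNA in the Sox18 and Sox7 values was not tested.

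The remaining Sox genes were at or near 0. Sox15 and Sry were listed at 0 in both libraries, and Sox30 had 0 reads in control tissue and 7 reads, 0.0666 RPKM, in mutant tissue. A value of 0 in these tables can be a failed estimate, though the rows of Sox15, Sry and Sox30 were marked OK in both libraries. Sox4, Sox11, Sox12, Sox18, Sox9, Sox2, Sox6 and Sox7 were thus the 8 Sox genes with a mean of at least 1 RPKM.

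Other genes with an HMG box centred near 0 on the log2 scale, with a median ratio of 0.03 over 21 genes, 12 of them higher and 9 lower in the mutant. Lef1 and Tcf7, which carry Wnt signals to DNA, were at 6.56 and 11.7 RPKM (1.78-fold, 1.43 to 2.24) and 2.02 and 3.48 RPKM (1.72-fold, 1.14 to 2.76). Hbp1, an HMG-box repressor gene, was at 11.9 and 8.12 RPKM (1.47-fold lower, 1.25 to 1.72), and Tox3 at 2.52 and 1.76 RPKM (1.43-fold lower, 0.996 to 1.99). On the scale with 1 RPKM added, none of the 21 was 2-fold apart. The dental mesenchyme markers, for comparison, had a median log2 ratio of -0.14, with a summed level of 446 RPKM in control tissue and 375 RPKM in mutant tissue. Of these 14 genes, 8 were lower, a share by sign close to that of all genes tested, and Runx2, given above, had the largest ratio of the list. By counting interval the share was larger, though an interval narrows with read number and these markers had more reads than most genes tested. Pax9, Lhx8 and Barx1 had about 853, 325 and 290 control reads, against a median of 61 per gene tested. The interval lay below 1 for 7 of the 13 that passed the filter, where 15.7% of all genes tested had one. It lay above 1 for 1, Runx2, where 7.54% of all genes tested had one. Those lower included Pax9 at 61.7 and 39.4 RPKM, Lhx8 at 30.6 and 20.02 RPKM and Barx1 at 39.6 and 27.2 RPKM, all transcription factor genes of the tooth-forming jaw.

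**Figure D5:**
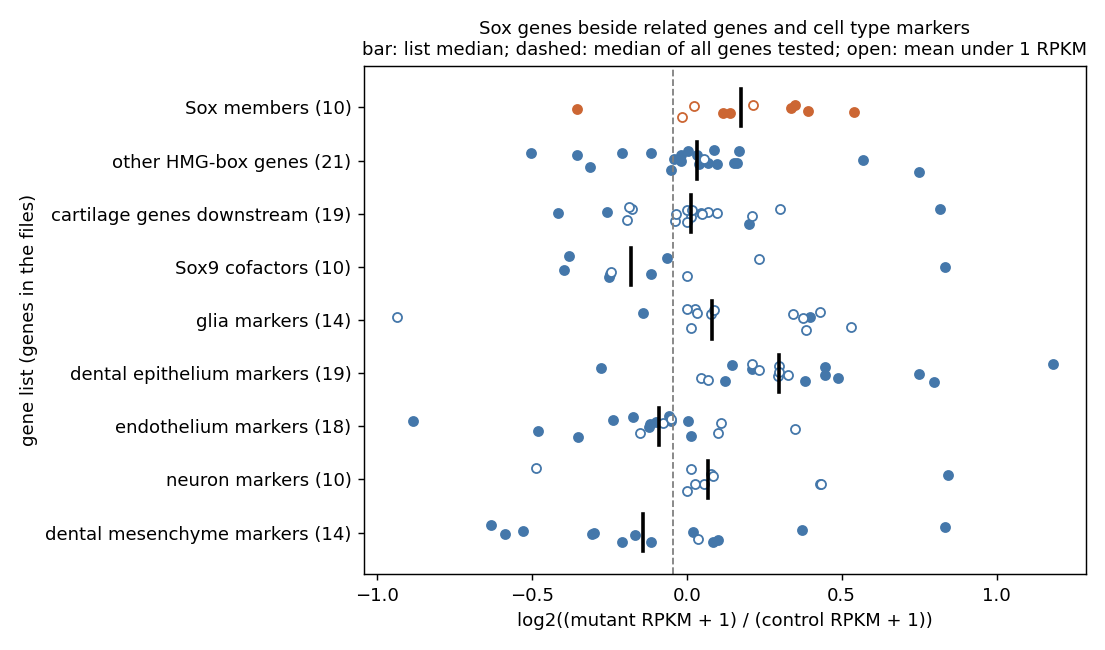
Log2 ratio of mutant over control RPKM, each with 1 added (horizontal axis), for every gene of each list (vertical axis, number of genes in brackets), with list medians as bars and the median of all genes tested as a dashed line. The Sox median is 0.18, the dental epithelium median 0.30 and the endothelium median -0.09, and open points are genes with a mean under 1 RPKM.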

How the data were processed

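Total RNA of captured tissue, isolated with the RNeasy micro kit, was copied into cDNA with NuGEN Ovation RNA-Seq v2, per the labels. TopHat 1.4.1, Bowtie 0.12.7 and build mm9 are named in the submitters' processing notes. The deposited tables, named for Cufflinks (version not given in the sources used here), hold 28107 transcript rows with RPKM and coverage, per the file headers. RPKM values were used as the authors deposited them. Coverage, the mean read depth of a row, was deposited without scaling for library size and is a fixed multiple of RPKM within a library, which gave a depth ratio of 6.38. The 2 tables list their rows in different orders and were joined on transcript, gene, locus and length.

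Left out were 54 rows marked FAIL or HIDATA, none of them of a Sox gene, and rows were summed per symbol (22054 genes). Ratios are on the scale of log2(RPKM + 1), which understates differences of low genes. Plain folds carry 95% Clopper-Pearson intervals, and RPKM values carry exact Poisson intervals. Both rest on approximate reads, taken as coverage times length divided by 44.3 bases (the median of products of 20 to 66 bases, averaged over the libraries). Of values from 0.5 to 2.5 such reads, only 31.8% in the control and 28.3% in the mutant lay within 0.1 of a whole number, so read numbers are estimates and no count model was fitted. Amplified reads are not independent molecules.

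Genes tested had a mean of at least 1 RPKM over both libraries, and 2-fold stands in for a call. Named were all Sox genes, Osr2, and up to 4 genes per list with the largest absolute log2 ratio among genes with that mean. Genes named for being at 0, or to show a list's level, and the sex-linked genes are outside that rule. Values of some listed marker genes are not reported here. The members and lists were chosen with earlier results of these data known. Alternatives were other pseudocounts, scalings, filters, row choices, statuses and read lengths. Locus starts are counted from 1. Python 3.11.15, pandas 2.3.3 and scipy 1.17.1 were used.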

Additional observations from a re-analysis of the deposited data

How the results depend on the processing

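Each of the 10 Sox genes kept the sign of its log2 ratio under pseudocounts of 0.1 and 0.5, the TPM scale, the median-ratio scale, the highest transcript row and rows of every status: 8 were above 0 and 2 below. The median over the 10 genes ran from 0.18 to 0.31, and no Sox gene was 2-fold apart in any of these. Sox6, the highest, ran from 0.32 with its highest row to 0.82 on the TPM scale. The number of Sox genes whose counting interval left 1 outside was 5, and 4 with 75 bases as 1 read or a depth ratio of 6.18, where Sox18 was the gene lost. Over all genes, 129 were 2-fold apart (58 higher, 71 lower), against 299 with a pseudocount of 0.1, 1212 on the TPM scale (where 13467 genes pass the same filter), 26 with a mean of at least 5 RPKM and 77 without transcripts under 200 bases. The levels of Sox5, Sox8 and Sox10 rest on 4, 5 and 3 control reads, which limits any statement on them. No paired analysis was possible because there is 1 library per genotype, and no library could be left out.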
